A study of Mus musculus with 23 samples.

Results

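Xcl1, Ccl3, Ccl4 and Ccl5 are 4 chemokine genes whose products activated T cells secrete. They were taken by symbol from a count table of 21900 protein-coding genes and followed through all 8 groups of the study. Its series title places the work in the targeting of antigen to erythrocytes and in T cell anergy and dysfunction. Ovalbumin (OVA) was the antigen. The T cells came from 2 lines, OT-I (CD8) and OT-II (CD4), each with a transgenic T cell receptor that sees a peptide of OVA, so a group models the response of 1 receptor rather than of a mixed repertoire. Both were transferred into wild-type C57BL/6 mice. At 1 day after transfer the hosts were given 1 ug of A8B1-OVA, free OVA at the molar equivalent, free OVA at a higher dose, or saline, and the T cells were sorted by flow cytometry at 5 days from spleens and lymph nodes put together. The labels do not explain A8B1. Titles of the free OVA groups carry the numbers 0.5 and 5 without a unit, and 1 label field prints the OT-II cell type as "OT-i". RNA of 3 mice was pooled per library. Each group has n = 3 libraries, apart from OT-II cells given higher-dose OVA with n = 2 (numbered 2 and 3), for 23 libraries in all. No source states more on how the libraries of a group differ than that they are pools, so p-values measure the spread between pooled libraries, which may in part be technical.

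Chemokines are small secreted proteins that guide cells along a gradient by way of receptors on the target cell. XCL1, or lymphotactin, draws dendritic cells that bear XCR1 and are specialised in presenting antigen to CD8 T cells. CCL3, CCL4 and CCL5 (MIP-1 alpha, MIP-1 beta and RANTES) draw T cells and myeloid cells. Signals from the T cell receptor switch on Xcl1, Ccl3 and Ccl4 quickly, while Ccl5 is known as a late gene that effector and memory CD8 T cells keep expressed.

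The genes fall into 2 structural classes, and the coding sequence around the first cysteine codons of the mature part shows the difference that names them. In the 3 CC chemokines 2 cysteine codons stand side by side, and in Xcl1, a C chemokine, 1 stands alone. The stretches below are from the coding strand of the GENCODE M21 transcripts (build GRCm38), 5′ to 3′, with these cysteine codons in capitals; codons are counted from the start codon, and those up to codon 20 were passed over as signal peptide.
Xcl1, codons 23 to 41: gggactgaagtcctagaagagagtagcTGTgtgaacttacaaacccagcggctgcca
Ccl3, codons 25 to 44: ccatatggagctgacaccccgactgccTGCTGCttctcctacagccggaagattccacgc
Ccl4, codons 25 to 44: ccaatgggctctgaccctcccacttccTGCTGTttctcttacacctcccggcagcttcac
Ccl5, codons 24 to 43: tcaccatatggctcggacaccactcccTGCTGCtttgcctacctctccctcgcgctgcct
After codon 20 Xcl1 has 2 cysteine codons, whereas Ccl3, Ccl4 and Ccl5 have 4 each. Over their coding sequences Ccl3 and Ccl4 were identical at 67% of aligned bases, Ccl3 and Ccl5 at 61.9%, and Ccl4 and Ccl5 at 59.7%. Xcl1 was identical with the others at 55.6% to 56.5%.

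In build GRCm38 Xcl1 (ENSMUSG00000026573) lies on the minus strand of chromosome 1 from 164931644 to 164935527. The other genes share 1 region of chromosome 11. Ccl3 (ENSMUSG00000000982) runs from 83647844 to 83649355 on the minus strand, Ccl4 (ENSMUSG00000018930) from 83662584 to 83664683 on the plus strand and Ccl5 (ENSMUSG00000035042) from 83525778 to 83530518 on the minus strand. Ccl3 and Ccl4 are 13228 bases apart, and Ccl5 is 117325 bases from Ccl3. Each gene's transcript has 3 exons. Of the 31-base words of their annotated exons, Ccl3 and Ccl4 shared 0 of 736 and 0 of 630 with any other gene, so reads of this close pair can be told apart, and Ccl5 shared 5 of 928 on its own strand and 1 on the opposite strand. Xcl1 shared no word with another gene on its own strand, but 70 of its 493 words (14.2%) lie in Gm20743, a non-coding gene on the opposite strand that spans it. Whether the libraries keep strand was not stated, so reads of this overlap cannot be told apart.

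Promoter sequences matched 2 of the 4 genes, Xcl1 and Ccl3, which are shown for that reason; both rose with A8B1-OVA in OT-I cells, as did Ccl4. The 250 bases before each start, from RefSeq in build GRCm38.p6 and read on the strand of the gene, are shown with TTTCC in capitals. This is GGAAA, the core bound by NFAT factors, on the opposite strand.
Xcl1, chr1:164935523-164935772, minus strand: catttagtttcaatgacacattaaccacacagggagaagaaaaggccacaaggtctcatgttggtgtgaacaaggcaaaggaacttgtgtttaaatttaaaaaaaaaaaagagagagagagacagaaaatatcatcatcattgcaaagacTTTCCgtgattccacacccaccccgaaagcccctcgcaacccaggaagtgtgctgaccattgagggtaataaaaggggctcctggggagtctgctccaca
Ccl3, chr11:83649379-83649628, minus strand: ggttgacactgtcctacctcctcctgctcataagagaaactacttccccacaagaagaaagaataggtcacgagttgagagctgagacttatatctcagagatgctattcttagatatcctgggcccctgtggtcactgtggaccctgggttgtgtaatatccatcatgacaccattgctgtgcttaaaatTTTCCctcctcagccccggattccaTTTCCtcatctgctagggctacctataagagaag
GGAAA, searched on both strands, was found 1 time in the Xcl1 window (at -100 from the start) and 2 times in that of Ccl3 (at -59 and -34), and 55.6% of 32851 such windows hold it. Neither window held the NF-kB motif (in 45.8% of windows) or the letters TGANTCA of AP-1 (6.75%), GCGNGGGCG of Egr factors (4.7%), TGACGTCA of CREB (1.55%) or the E-box CACGTG (6.02%). The matches do not overlap one another. A match is a description of letters, not a binding site.

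Library totals ran from 26.6 M to 73.5 M estimated counts. At these depths a count of 0 allows 0.0408 to 0.113 counts per M counts of the library (CPM), taken as 3 counts of a library's total. This floor and the interval given further on cover counting error only, since amplified reads lacking molecular identifiers do not count molecules. Every gene of the 4 passed the filter on low counts in each fit. Summed markers of T cells (5 genes) were alike in all libraries, at 4785 to 6232 CPM. Summed CD8 markers (Cd8a and Cd8b1) were at 2377 to 4133 CPM in OT-I libraries and 24.8 to 59.75 in OT-II libraries. Cd8a alone was at 783 to 1400 CPM in OT-I libraries and 1.12 to 7.41 in OT-II libraries. The summed CD4 markers (Cd4 and Zbtb7b) were at 621 to 782 CPM in OT-II libraries. In 11 of the 12 OT-I libraries that sum was 2.02 to 18.5 CPM, and in replicate 1 of the higher-dose OVA group it was 198. Summed markers of myeloid and dendritic cells (15 genes) stood at 890 CPM in OT-I molar-equivalent OVA replicate 2, 371 in OT-I saline replicate 1 and 602 in OT-II saline replicate 1, against 39.7 to 171 in the other 20 libraries. B cell markers (10 genes) were at 578 CPM in the first of these and at 200.5 in OT-II molar-equivalent OVA replicate 3, and at 42.9 to 156 elsewhere. These 4 libraries and the OT-I library with raised Cd4 are called the 5 libraries with raised markers below. Other markers were raised outside this set. Those of NK cells (10 genes) summed to 219 CPM in OT-I higher-dose OVA replicate 2. Those of erythroid cells and platelets (8 genes) summed to 377 CPM in OT-II saline replicate 3. In bulk samples, fewer expressing cells and less RNA per cell cannot be told apart.

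Xcl1 was the gene of the 4 that rose with A8B1-OVA in both cell types, 11.8-fold over saline in OT-I cells and 14.9-fold in OT-II cells. In OT-I cells it stood at 185, 163 and 93.9 CPM with A8B1-OVA and at 16.3, 9.90 and 10.99 with saline. With molar-equivalent OVA it was at 6.29, 13.4 and 13.2 CPM, and with higher-dose OVA at 12.7, 10.2 and 15.04. The A8B1-OVA libraries all lay above the other 9, which overlapped one another. By edgeR's quasi-likelihood test with Benjamini-Hochberg adjustment over all tested genes, the log2 fold change was 3.56 ± 0.33 (SE) over saline (11.8-fold, adjusted p = 7.92e-05). It was 3.75 ± 0.34 over molar-equivalent OVA (adjusted p = 9.78e-05) and 3.51 ± 0.34 over higher-dose OVA (adjusted p = 0.00033).

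In OT-II cells the same step started from a lower level. Xcl1 was at 13.4, 13.9 and 12.3 CPM with A8B1-OVA and at 1.08, 0.702 and 0.900 with saline. It was at 0.266, 0.970 and 0.470 CPM with molar-equivalent OVA and at 0.352 and 0.722 with higher-dose OVA. Again no library of the other treatments reached those with A8B1-OVA. The log2 fold change was 3.90 ± 0.44 over saline (14.9-fold, edgeR adjusted p = 0.000462), 4.55 ± 0.46 over molar-equivalent OVA (adjusted p = 0.000243) and 4.63 ± 0.55 over higher-dose OVA (adjusted p = 0.00318). Without higher-dose OVA replicate 2, which leaves 1 library in that group whose spread is taken from the other groups, the last was 4.20 and did not pass (adjusted p = 0.0851).

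The response of Xcl1 to A8B1-OVA over saline differed between OT-I and OT-II cells by -0.32 ± 0.48 on the log2 scale (95% interval -1.34 to 0.71, edgeR adjusted p = 0.905). With A8B1-OVA the OT-II level (mean 13.2 ± 0.79 SD) overlapped that of OT-I cells given saline (12.4 ± 3.42), and Xcl1 was 11.2-fold higher in OT-I than in OT-II cells given A8B1-OVA (log2 3.48 ± 0.35, adjusted p = 7.84e-07). Markers of NK cells, which also express Xcl1, were not higher in those libraries as a sum. The 10 genes summed to 21.5 to 31.5 CPM in OT-I cells with A8B1-OVA and 33.5 to 58.5 with saline, and to 15.4 to 29.5 and 20.8 to 73.5 CPM in OT-II cells. Of its single genes, the NK receptor Ncr1 was at 0.379 to 0.819 CPM with A8B1-OVA and 1.09 to 1.51 with saline in OT-I cells, whereas Klrb1c was higher with A8B1-OVA, at 6.81 to 10.7 against 3.79 to 5.92. The part of NK cells in the level of Xcl1 was not tested. In the OT-II libraries with A8B1-OVA Cd8a was at 1.12 to 2.14 CPM, and with saline at 1.39 to 7.41. Summed with Cd8b1, the level was 24.8 to 31.1 CPM with A8B1-OVA and 46.1 to 59.75 with saline. The part of CD8 cells in the OT-II level of Xcl1 was not tested.

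**Figure D1:**
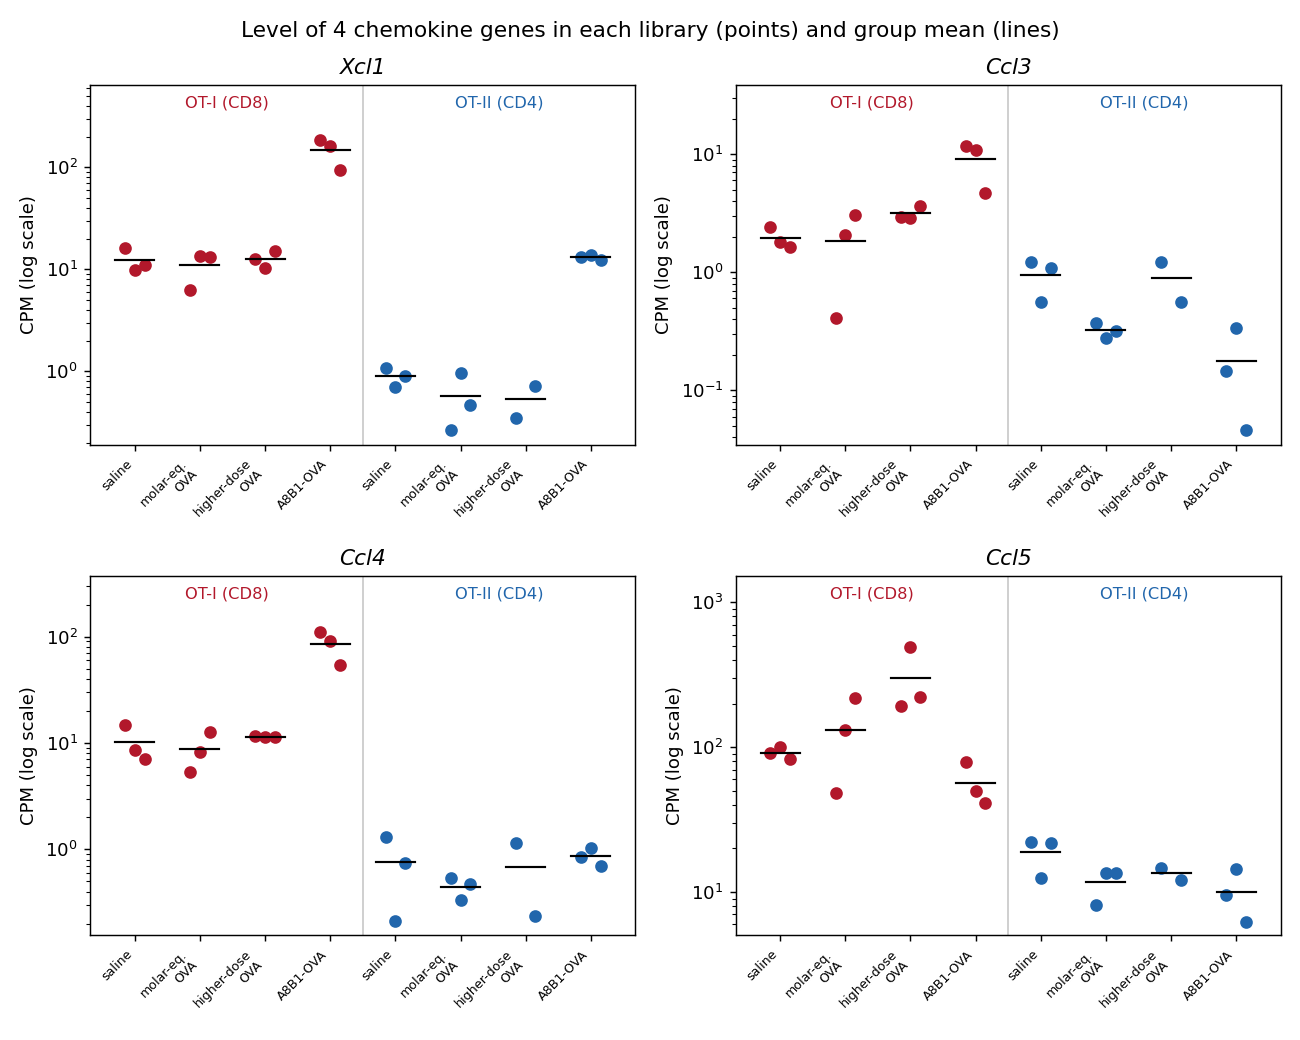
Level of each chemokine gene in CPM (log axis) by cell type and treatment; points are libraries and lines are group means. Xcl1 stands apart with A8B1-OVA in both cell types, Ccl4 in OT-I cells, where its A8B1-OVA libraries lie between 54.5 and 109 CPM, and Ccl5 is highest in OT-I cells with higher-dose OVA.

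Ccl4, which codes for MIP-1 beta, rose with A8B1-OVA in OT-I cells. It was at 109, 91.8 and 54.5 CPM with A8B1-OVA and at 14.7, 8.56 and 7.08 with saline. With molar-equivalent OVA it was at 5.32, 8.19 and 12.6 CPM, and with higher-dose OVA at 11.5, 11.3 and 11.4. As with Xcl1, the 3 libraries with A8B1-OVA lay above all others of OT-I cells, and replicate 3 was the lowest of them for both genes. The log2 fold change was 3.06 ± 0.35 over saline (8.34-fold, edgeR adjusted p = 0.000188), 3.29 ± 0.36 over molar-equivalent OVA (adjusted p = 0.000182) and 2.87 ± 0.35 over higher-dose OVA (adjusted p = 0.00172).

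OT-II cells had little Ccl4 under any treatment. The libraries were at 0.849, 1.02 and 0.703 CPM with A8B1-OVA and at 1.29, 0.212 and 0.750 with saline. They were at 0.532, 0.337 and 0.470 CPM with molar-equivalent OVA and at 1.14 and 0.235 with higher-dose OVA. These ranges overlap except that all A8B1-OVA libraries lie above those with molar-equivalent OVA (log2 fold change 0.95 ± 0.69, edgeR adjusted p = 0.497). Against saline the log2 fold change was 0.22 ± 0.68 (95% interval -1.39 to 1.82, adjusted p = 0.908). The OT-I response over saline exceeded that of OT-II cells by 2.87 ± 0.69, which did not pass with edgeR (adjusted p = 0.0787) and passed with DESeq2 (2.88, adjusted p = 0.00266). With edgeR it passed without OT-I A8B1-OVA replicate 3 (3.11, adjusted p = 0.0435) and without OT-II saline replicate 2 (3.31, 0.017). With A8B1-OVA Ccl4 was 99.2-fold higher in OT-I than in OT-II cells (log2 6.63 ± 0.56, adjusted p = 6.67e-08), the widest gap between the cell types among the 4 genes and 4 treatments.

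Ccl3, the neighbour of Ccl4 and the gene of MIP-1 alpha, had a lower level than Ccl4 in OT-I cells (11.9 against 129 CPM per kb of transcript with A8B1-OVA), and it was highest with A8B1-OVA in OT-I cells and lowest with it in OT-II cells. OT-I libraries with A8B1-OVA were at 11.7, 10.9 and 4.72 CPM and those with saline at 2.42, 1.79 and 1.64. With molar-equivalent OVA Ccl3 was at 0.407, 2.08 and 3.07 CPM, and with higher-dose OVA at 2.93, 2.88 and 3.64. The A8B1-OVA libraries were again the 3 highest. Over saline the log2 fold change was 2.21 ± 0.55 (4.62-fold, edgeR adjusted p = 0.0207), over molar-equivalent OVA 2.31 ± 0.56 (adjusted p = 0.0195) and over higher-dose OVA 1.498 ± 0.54, which did not pass (adjusted p = 0.156; 0.0438 with DESeq2).

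The calls of Ccl3 in OT-I cells were less firm than those of Xcl1 and Ccl4. Over saline the log2 fold change was 2.40 without the 5 libraries with raised markers (edgeR adjusted p = 0.0702). Leaving out A8B1-OVA replicate 1 gave 2.00 (adjusted p = 0.069) and replicate 2 gave 2.08 (0.0795). Without saline replicate 1, 2 or 3 it was 2.40, 2.15 or 2.10 (adjusted p = 0.0516, 0.079 and 0.0907). Over molar-equivalent OVA the call was lost without the 5 libraries (2.42, adjusted p = 0.06), without A8B1-OVA replicate 1 (2.10, 0.0608) or 2 (2.18, 0.0751), and in a fit of the 6 libraries alone (2.31, 0.0881). All of these kept the direction.

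In OT-II cells Ccl3 was lowest with A8B1-OVA. Its libraries held 10, 20 and 3 counts, or 0.146, 0.335 and 0.0458 CPM, and those with saline 1.22, 0.555 and 1.09 CPM. The lowest value is that of 3 counts, with an exact 95% Poisson interval of 0.00945 to 0.134 CPM for counting error. With molar-equivalent OVA the libraries were at 0.373, 0.277 and 0.320 CPM and with higher-dose OVA at 1.22 and 0.560. No A8B1-OVA library reached the saline or higher-dose libraries, whereas those with molar-equivalent OVA overlapped the A8B1-OVA libraries. Against saline the log2 fold change was -2.42 ± 0.70 and did not pass with edgeR (adjusted p = 0.0577). It passed with DESeq2 (-2.43, adjusted p = 0.013), in 1 fit of all 23 libraries (-2.44, 0.0247) and without A8B1-OVA replicate 2 (-3.26, 0.0394). Against higher-dose OVA it was -2.31 ± 0.74 (edgeR adjusted p = 0.186) and against molar-equivalent OVA -0.87 ± 0.69 (adjusted p = 0.541). In OT-II saline replicate 1, which has 602 CPM of myeloid markers, Ccl3 was the highest of the 3 saline libraries, and the part of those markers in the result was not tested.

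The difference itself between the responses of the 2 cell types passed for Ccl3. OT-I minus OT-II, A8B1-OVA over saline gave 4.66 ± 0.87 on the log2 scale (edgeR adjusted p = 0.0146). It kept its size but not its call without the 5 libraries with raised markers (4.60, adjusted p = 0.114), without OT-I saline replicate 2 (4.62, 0.0577) or 3 (4.57, 0.0551), and without OT-II A8B1-OVA replicate 1 (4.54, 0.0523). The same difference was 3.20 ± 0.87 over molar-equivalent OVA (adjusted p = 0.192) and 3.87 ± 0.89 over higher-dose OVA (adjusted p = 0.253). These 3 values share the A8B1-OVA libraries.

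Ccl5, the gene of RANTES, did not follow the other genes. OT-I cells held 78.5, 50.1 and 41.3 CPM with A8B1-OVA and 90.6, 100.3 and 82.5 with saline. With molar-equivalent OVA the libraries were spread over 48.2, 131 and 218 CPM, and with higher-dose OVA they were at 193, 492 and 222. All A8B1-OVA libraries lay below those with saline and with higher-dose OVA, and overlapped those with molar-equivalent OVA. Ccl5 fell with A8B1-OVA relative to higher-dose OVA (log2 fold change -2.45 ± 0.48, 5.47-fold lower, edgeR adjusted p = 0.0236). Relative to saline the value was -0.70 ± 0.45 (adjusted p = 0.354) and relative to molar-equivalent OVA -1.23 ± 0.46 (adjusted p = 0.105; 0.0237 without molar-equivalent OVA replicate 1, where it was -1.63).

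The contrast of A8B1-OVA with higher-dose OVA leaned on single libraries. Its log2 fold change was -1.87 without higher-dose OVA replicate 2, the library at 492 CPM (edgeR adjusted p = 0.0716), and -2.63 without replicate 3 (0.0513). It was -2.74 without A8B1-OVA replicate 1 (0.0518), -2.35 without replicate 2 (0.145) and -2.69 without the 5 libraries with raised markers (0.0724). For higher-dose OVA over saline Ccl5 gave 1.75 ± 0.46 (adjusted p = 0.0776), and it passed with DESeq2 (1.75, 0.0266), in a fit of the 6 libraries (1.73, 0.0111) and in 1 fit of all 23 libraries (1.73, 0.0369).

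NK cells also express Ccl5, and their part in the result was not tested. The sum of NK markers was higher in all OT-I libraries with higher-dose OVA than in those with saline. That sum was 62.7 to 219 CPM in OT-I cells with higher-dose OVA, 33.5 to 58.5 with saline and 20.6 to 153 with molar-equivalent OVA. In replicates 2 and 3 with molar-equivalent OVA the sum was 153 and 89.1 CPM, and Ccl5 in the opposite order at 131 and 218. With higher-dose OVA most of the sum was Gzma, a granule protease of NK cells and of cytotoxic T cells. Gzma was at 47.8, 192 and 39.7 CPM in replicates 1, 2 and 3 with higher-dose OVA, 10.9 to 11.9 with saline and 7.43, 27.5 and 48.6 with molar-equivalent OVA, so the order of the libraries with molar-equivalent OVA was that of their Ccl5. Ncr1, another of the 10 genes, was at 0.744 CPM in the library with 492 CPM of Ccl5, and at 1.09 to 1.51 in the saline libraries. The other genes of the sum are not given singly here, so Gzma and Ncr1 do not stand for the list.

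OT-II cells had less Ccl5 than OT-I cells under each treatment. Their libraries held 9.51, 14.4 and 6.25 CPM with A8B1-OVA and 22.1, 12.5 and 21.8 with saline. They held 8.11, 13.6 and 13.5 CPM with molar-equivalent OVA and 14.8 and 12.1 with higher-dose OVA. All 4 ranges overlapped. The log2 fold change of A8B1-OVA over saline was -0.89 ± 0.31 (edgeR adjusted p = 0.115; 0.0384 with DESeq2). Over molar-equivalent OVA it was -0.22 ± 0.31 (adjusted p = 0.779), and over higher-dose OVA -0.40 ± 0.34 (adjusted p = 0.703).

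**Figure D2:**
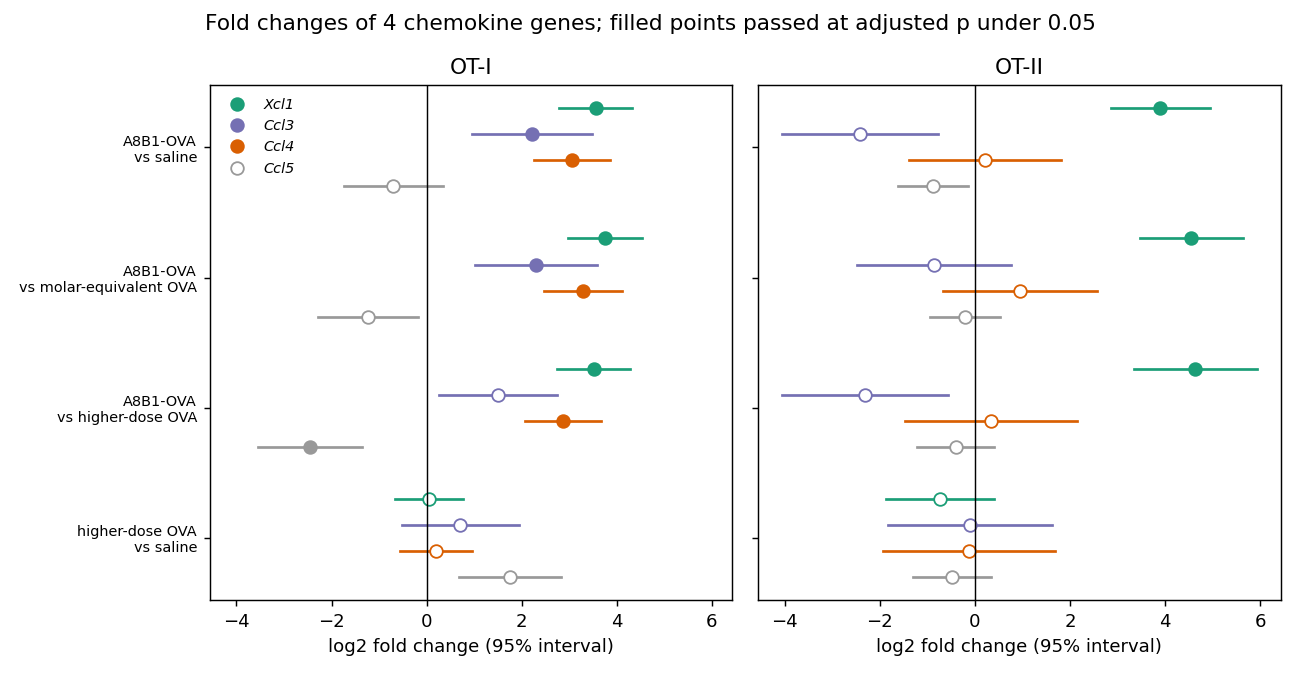
Log2 fold changes (points) with 95% intervals (lines) of the 4 genes in 4 comparisons for OT-I and OT-II cells; filled points passed at an adjusted p under 0.05 with edgeR. Xcl1 is filled to the right of 0 for A8B1-OVA in both cell types, Ccl4 in OT-I cells, and Ccl5 is filled to the left of 0 for A8B1-OVA over higher-dose OVA in OT-I cells.

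Counted by comparison, 3 of the 4 genes were higher with A8B1-OVA than with saline in OT-I cells, where 11.5% of all tested genes were called in either direction. Against molar-equivalent OVA 3 of 4 were higher (10.6% of all genes). Against higher-dose OVA 2 were higher and 1 lower (2.41%). In OT-II cells Xcl1 was the 1 gene called against saline (7.28% of all genes), against molar-equivalent OVA (6.36%) and against higher-dose OVA (1.34%). The comparisons with A8B1-OVA share its libraries within a cell type.

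Free OVA moved none of the 4 genes past the threshold. In OT-I cells 0 of 4 were called for higher-dose OVA over saline (2.41% of all genes), with 1 gene, Ccl5, at an unadjusted p under 0.05 and called by DESeq2. For higher-dose over molar-equivalent OVA edgeR also called 0 (1.04% of all genes; 1 at an unadjusted p under 0.05, Ccl5 with 1.22 ± 0.46, and 0 with DESeq2). For molar-equivalent OVA over saline the counts were 0 and 0 (0% of all genes called by edgeR, 0 members with DESeq2). In OT-II cells edgeR called 0 of 4 for higher-dose OVA over saline (0.0271% of all genes), for higher-dose over molar-equivalent OVA (0%) and for molar-equivalent OVA over saline (0%). DESeq2 called 0 in each, and 1 gene had an unadjusted p under 0.05, Ccl3 for molar-equivalent OVA over saline (-1.55 ± 0.67, adjusted p = 1). Intervals show how much such a count can miss. For higher-dose OVA over saline in OT-I cells the 95% interval of Xcl1 was -0.67 to 0.76 and that of Ccl4 -0.57 to 0.96 on the log2 scale, and in OT-II cells that of Xcl1 was -1.87 to 0.40.

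For the difference of the responses between the cell types, 1 of 4 genes was called for A8B1-OVA over saline (0.433% of all genes). For A8B1-OVA over molar-equivalent OVA edgeR called 0 (0.282% of all genes; 2 at an unadjusted p under 0.05, and 2, Ccl3 and Ccl4, with DESeq2). For A8B1-OVA over higher-dose OVA it called 0 (0.00656%; 3 at an unadjusted p under 0.05 and 1, Ccl3, with DESeq2). For higher-dose OVA over saline it called 0 (0.00656%; 1 at an unadjusted p under 0.05, Ccl5 with 2.21 ± 0.66, and 0 with DESeq2).

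Between the cell types all 4 genes were higher in OT-I than in OT-II cells given A8B1-OVA (20.6% of all genes were called) and given molar-equivalent OVA (16.0%). With higher-dose OVA (10.1% of all genes) and with saline (15.5%) 3 of 4 were higher. Ccl3 was the exception in both, with log2 differences of 1.82 ± 0.68 (edgeR adjusted p = 0.101, and 0.0298 with DESeq2) and 1.03 ± 0.58 (adjusted p = 0.27). Its call with molar-equivalent OVA (2.49 ± 0.62, adjusted p = 0.00838) was lost without OT-I replicate 3 of that treatment (1.87, 0.0688) and without the 5 libraries with raised markers (2.38, 0.0803). Ccl5 differed by 2.28 ± 0.45 with saline (4.85-fold, adjusted p = 0.00112), by 4.49 ± 0.58 with higher-dose OVA (22.5-fold, adjusted p = 3.19e-05) and by 2.495 ± 0.45 with A8B1-OVA (5.64-fold, adjusted p = 0.000588).

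Ordered by group mean, the levels gave a different ladder for each gene. Xcl1 stood at 147 CPM in OT-I cells with A8B1-OVA, then at 10.9 to 13.2 in OT-II cells with A8B1-OVA and the other 3 OT-I groups, whose libraries overlap from each group to the next, and then at 0.537 to 0.894 in the other 3 OT-II groups. Ccl4 stood at 85.2 CPM in OT-I cells with A8B1-OVA, at 8.71 to 11.4 in the other OT-I groups and at 0.446 to 0.858 in the 4 OT-II groups, where neighbours in the order overlap. Ccl5 began with OT-I cells given higher-dose OVA at 302 ± 165 CPM (SD), which overlap the next, molar-equivalent OVA at 132 ± 84.96, and ended with the 4 OT-II groups at 10.1 to 18.8. Ccl3 ran from 9.11 CPM in OT-I cells with A8B1-OVA to 0.176 in OT-II cells with A8B1-OVA, so that the same treatment held both ends of its order.

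Read per kilobase of transcript, which lets the genes be compared, the 4 transcripts had another makeup with A8B1-OVA than with the other treatments. In OT-I cells given saline Ccl5 made up 80.6% ± 4.97 (SD, n = 3) of the summed level and Xcl1 11.1% ± 2.62. With A8B1-OVA Xcl1 made up 53.2% ± 2.18, Ccl4 24.4% ± 0.52, Ccl5 20.3% ± 3.00 and Ccl3 2.19% ± 0.39. The sum was 213 ± 20.8 CPM per kb with saline and 529 ± 170 with A8B1-OVA, which was not tested. With higher-dose OVA the sum was 614 ± 306 CPM per kb, of which Ccl5 made up 91.3% ± 3.94. The 2 OT-I groups with the highest sums thus differed in which chemokine filled them.

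In OT-II cells given A8B1-OVA Xcl1 and Ccl5 held nearly all of the sum, and Xcl1 was the larger in replicates 1 and 3 (56.9% and 64.7%) but not in replicate 2 (47.8%, against 48.6% for Ccl5). Xcl1 made up 56.5% ± 8.45 of the sum, Ccl5 40.2% ± 8.20, Ccl4 2.86% ± 0.07 and Ccl3 0.459% ± 0.31. With saline Xcl1 made up 4.46% ± 0.69 and Ccl5 89.8% ± 1.499. The sums, 45.6 ± 9.58 CPM per kb with A8B1-OVA and 39.4 ± 11.7 with saline, differed by less than their spread.

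**Figure D3:**
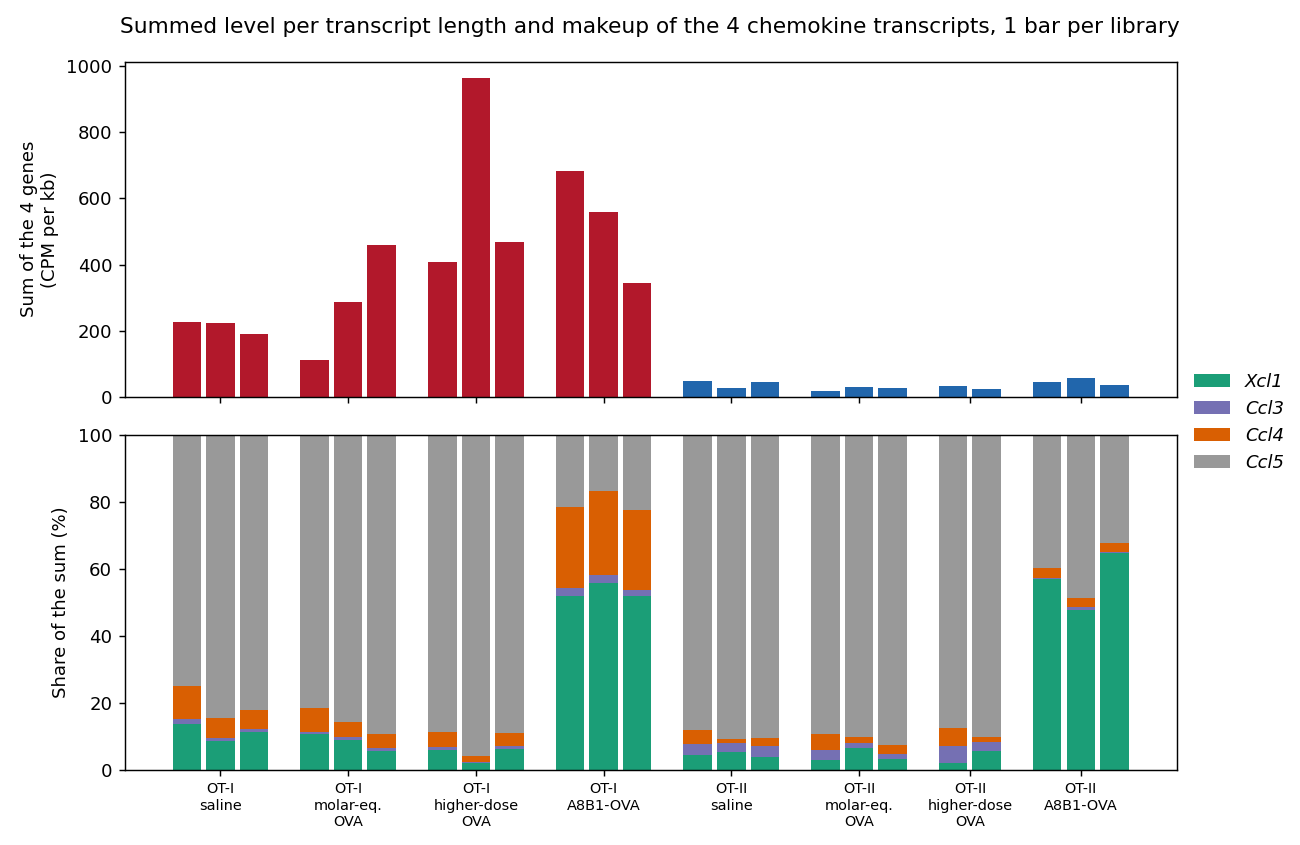
Upper bars give the sum of the 4 genes in CPM per kb of transcript in each library, and lower bars the share of each gene in that sum in percent, with 1 bar per library. Xcl1 makes up 53.2% on average in OT-I and 56.5% in OT-II libraries with A8B1-OVA, and Ccl5 at least 80.6% on average in the groups with other treatments.

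Across libraries the genes paired differently in the 2 cell types. Over the 12 OT-I libraries, log2 CPM of Xcl1 and Ccl4 had a Pearson r of 0.987, Ccl3 and Ccl4 of 0.884 and Xcl1 and Ccl3 of 0.86. Over the 11 OT-II libraries these were 0.348, 0.144 and -0.65, and Ccl3 and Ccl5 had 0.833 there against -0.01 in OT-I cells. Libraries of 1 treatment share that treatment, so these values describe the group steps above more than any spread within groups.

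Genes whose levels were most like a member's were ranked by the lower of the r values over the 12 OT-I and over the 11 OT-II libraries, among 9045 genes with a mean of at least 5 CPM in each cell type. For Xcl1 the first was Tnfrsf9, a co-stimulatory receptor of the TNF receptor family (r = 0.977 and 0.952), followed by Ephx1, Hivep3, 3110082I17Rik and Bcat1. For Ccl4 they were Psmd3, Fzr1, P4hb, Map4k1 and Tomm40, led by Psmd3, a proteasome subunit, at 0.841 and 0.849. For Ccl3 they were Ass1, Capg, Fbxo42, Smap2 and Rhof, led by Ass1, argininosuccinate synthase, at 0.854 and 0.826. For Ccl5 they were Ifitm10, Trex1, Ahnak, Ly6c2 and Crip1, led by Ifitm10 at 0.848 and 0.943. No gene stood in more than 1 of these lists. By rank (Spearman) Tnfrsf9 had 0.797 and 0.691, Psmd3 0.748 and 0.836, Ass1 0.825 and 0.664, and Ifitm10 0.692 and 0.845. As above, libraries of 1 treatment share that treatment. In OT-II cells Ccl3 and Ccl4 stood at 0.0458 to 1.29 CPM, so their r values there rest on low counts.

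Few other chemokine ligands passed the test, at shares not far from those of all genes. Of 34 listed, 33 were in the table, and 12 were tested in OT-I and 18 in OT-II cells. With A8B1-OVA over saline edgeR called 0 in both, where 11.5% and 7.28% of all genes were called. Of these ligands 1 and 2 had an unadjusted p under 0.05, and DESeq2 called 0 and 1. Their median log2 fold changes were -0.57 and -0.47, beside -0.02 and -0.01 over all genes. Ccl6, a ligand of myeloid cells, was lower with A8B1-OVA than with molar-equivalent OVA in OT-I cells (-3.47 ± 0.97, adjusted p = 0.0379), where its level was 11.9 ± 14.9 CPM and the group holds the library with 890 CPM of myeloid markers. Ccl25 was higher in OT-II cells with A8B1-OVA than with molar-equivalent OVA (0.70 ± 0.18, adjusted p = 0.0398). Each was the 1 ligand called in its comparison, where 10.6% and 6.36% of all genes were called. Per kb of transcript the other ligands with a known length summed to 12.2 to 44.8 CPM per kb over all libraries. In OT-I cells with A8B1-OVA they summed to 12.2 to 17.8 CPM per kb and the 4 genes to 346 to 683.

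**Figure D4:**
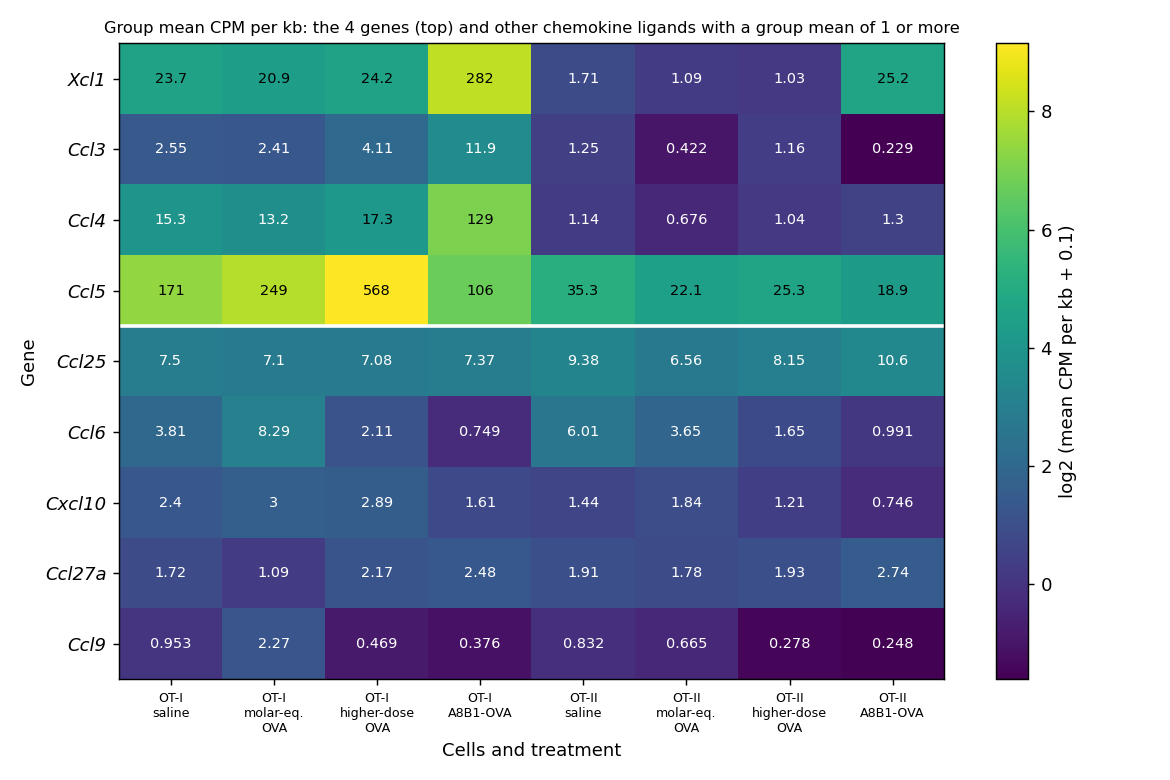
Mean CPM per kb of transcript in each of the 8 groups (numbers in cells, colour on a log2 scale with 0.1 added) for the 4 genes, above the white line, and for the 5 other chemokine ligands of known transcript length with a group mean of 1 or more. Ccl21a, at a mean of 3.15 CPM in OT-I cells with saline, had no known length and is not shown. Xcl1 reaches 282 and Ccl4 129 in OT-I cells with A8B1-OVA, and the highest of the other ligands shown is Ccl25 with 10.6 in OT-II cells with A8B1-OVA.

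Among 9 cytokines that T cells make along with these chemokines, 6 were tested in OT-I cells and 2 rose with A8B1-OVA over saline (11.5% of all genes were called). These were Tnfsf14 (LIGHT; 28.2 ± 5.22 against 5.88 ± 0.66 CPM, 2.25 ± 0.23, adjusted p = 0.000105) and Il2 (0.860 ± 0.26 against 0.0748 ± 0.06 CPM, 3.44 ± 0.80, adjusted p = 0.0146), the T cell growth factor. With higher-dose OVA over saline (2.41% of all genes called) 2 rose, Ifng (2.03 ± 0.43, adjusted p = 0.0255) and Il2 (3.49 ± 0.80, adjusted p = 0.0385). The saline level of Il2 is near the floor of those libraries, 0.0440 to 0.0557 CPM (3 counts). Both fold changes of Il2 thus rest on few saline counts. In OT-II cells 1 of 8 rose with A8B1-OVA over saline, Lta (0.56 ± 0.13, adjusted p = 0.0245), a share close to the 7.28% of all genes called. Median log2 fold changes with A8B1-OVA over saline were 0.93 in OT-I and 0.23 in OT-II cells.

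A list of 23 transcription factors of T cell activation and differentiation changed in part in both cell types. All were tested, and with A8B1-OVA over saline 9 rose and 4 fell in OT-I cells (11.5% of all genes called), with a median log2 fold change of 0.54 beside -0.02 over all genes. Irf4 (1.85 ± 0.19, edgeR adjusted p = 9.23e-05), Egr2 (1.63 ± 0.19, 0.000206) and Nfatc1 (0.82 ± 0.16, 0.00521), which act below the T cell receptor, were among those that rose. In OT-II cells 9 rose and 5 fell (7.28% of all genes called; median 0.56 beside -0.01), among them Egr2 (2.07 ± 0.27, adjusted p = 0.000993) and Nfatc1 (0.88 ± 0.09, 0.000172). Klf2, a factor of resting T cells, fell in both, by 0.75 in OT-I (adjusted p = 0.00244) and by 1.27 in OT-II cells (adjusted p = 3.12e-05). Factors that act below the receptor did not all rise. Junb, an AP-1 factor of the list, had lower means with A8B1-OVA than with saline in both cell types. It stood at 528 ± 217 against 1563 ± 260 CPM in OT-I cells and at 1525 ± 690 against 3876 ± 860 CPM in OT-II cells.

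Eomes, a T-box factor of cytotoxic and memory T cells, was the 1 of 23 called for the difference of responses over saline (0.433% of all genes called). OT-I minus OT-II gave -4.18 ± 0.46 (edgeR adjusted p = 7.98e-05). Responses of the factors not called may still differ. Eomes stood at 111 ± 25.6 CPM in OT-II cells with A8B1-OVA and 3.54 ± 1.74 with saline (5.00 ± 0.42, adjusted p = 5.71e-05), and at 117 ± 2.79 and 67.3 ± 7.23 CPM in OT-I cells. With higher-dose OVA over saline 3 of the 23 rose in OT-I cells and 0 fell (2.41% of all genes called). Those were Irf4 (1.32 ± 0.18, adjusted p = 0.00418), Tbx21 (2.21 ± 0.32, 0.00447) and Eomes (0.92 ± 0.20, 0.0262). In OT-II cells edgeR called 0 of the 23 in that contrast (0.0271% of all genes called). Of the 23, 6 had an unadjusted p under 0.05, and DESeq2 called 0.

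Of 8 genes for the storage and release of granules and vesicles, 1 rose with A8B1-OVA over saline in OT-I cells, a share near the 11.5% of all genes called. It was the syntaxin Stx11 (21.5 ± 3.27 against 7.68 ± 1.09 CPM, 1.47 ± 0.34, edgeR adjusted p = 0.0152). In OT-II cells, where 7.28% of all genes were called, edgeR called 0 of 8 (2 had an unadjusted p under 0.05, and DESeq2 called 1). Medians were 0.14 and -0.03.

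**Figure D5:**
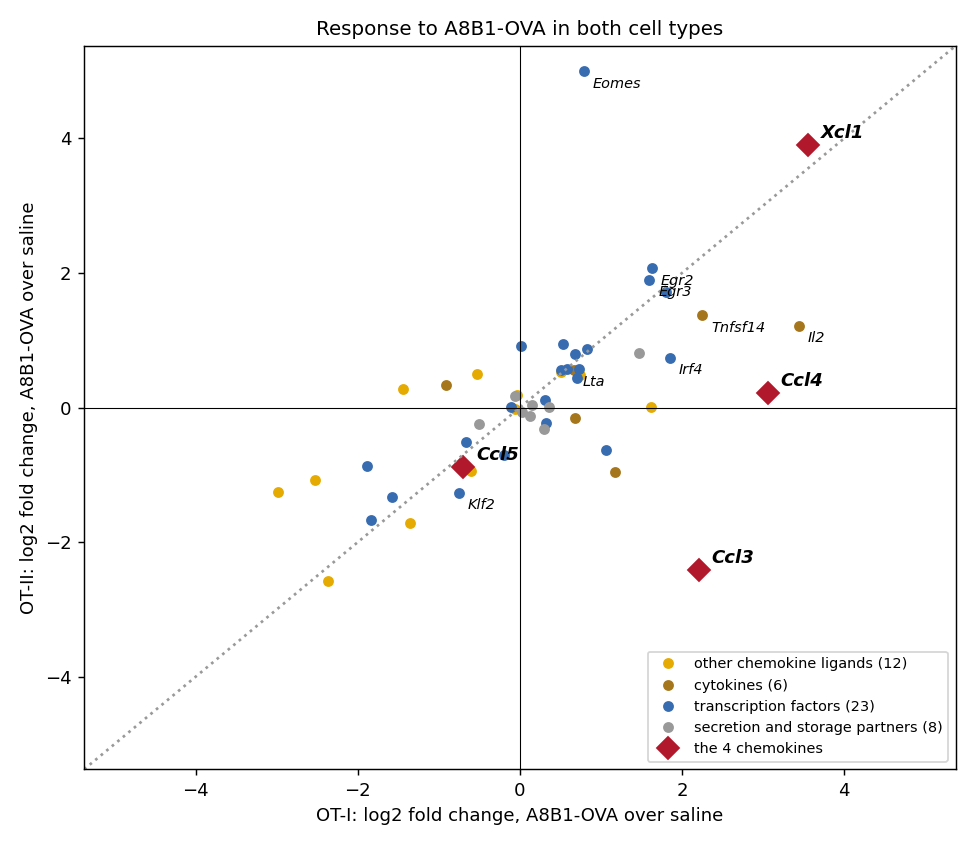
Log2 fold change with A8B1-OVA over saline in OT-I cells (horizontal) and OT-II cells (vertical) for the 4 genes (diamonds) and for the listed genes tested in both; the dotted line marks equal responses. Xcl1 lies near the line at 3.56 and 3.90, Ccl4 at 3.06 and 0.22, Ccl3 at 2.21 and -2.42, and Eomes at 0.79 and 5.00.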

How the data were processed

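RNA was measured in 23 libraries of sorted OT-I and OT-II cells; cDNA was made with SmartSeq, per the labels. Per the submitters' processing notes, reads were handled with bcl2fastq and kallisto 0.46.1 on build GRCm38. Estimated counts per gene, all whole numbers, make up the 1 table the authors deposited; the annotation release, strand and rounding were not given. Library totals of 26.6 M to 73.5 M give a floor of 0.0408 to 0.113 CPM (3 counts).

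Each cell type was fitted alone with edgeR 4.0.16 in R 4.3.3 (TMM, filterByExpr at a count of 10 and a total of 15, 1 coefficient per group, quasi-likelihood test), on 14080 genes in OT-I and 14757 in OT-II cells. Contrasts across cell types used 1 fit of all libraries (15235 genes). Calls needed a Benjamini-Hochberg adjusted p under 0.05 over all tested genes, and 95% intervals used the residual degrees of freedom. CPM are TMM-scaled from the joint fit, as mean ± SD over libraries; CPM per kb divides by transcript length in GENCODE M21. Fold changes carry ± SE. Correlations used log2 CPM with a prior count of 2. The test was tried on simulated data with changes put only into genes at higher counts, so the trial does not bear on genes at low counts. Alternatives were DESeq2 1.42.0, RLE factors, no filter, a replicate block, other sets of libraries in the fit, and leaving out each library or the 5 with raised markers. Replicates of every group differed by more than counting noise. Of all pairs, OT-I A8B1-OVA replicate 3 differed most from its group. Its mean chi-square per gene was 255.5 and 241 against replicates 1 and 2. Replicates 1 and 2 gave 61.9 against each other.

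Members, lists and the 5 libraries were chosen with earlier results of these data known. A further list of genes is not reported here. Named were all 4 members, up to 4 genes per list and comparison with the lowest adjusted p, and 5 genes most like each member. Junb is named besides these.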

Additional observations from a re-analysis of the deposited data

Results flagged for a closer look

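For Ccl3 the response to A8B1-OVA over saline differed between the cell types by the test of the difference itself (OT-I minus OT-II 4.66 ± 0.87 on the log2 scale, edgeR adjusted p = 0.0146). It was 2.21 ± 0.55 in OT-I cells, where all 3 libraries with A8B1-OVA were above all 3 with saline, and -2.42 ± 0.70 in OT-II cells, where all 3 were below. The OT-II side rests on 10, 20 and 3 counts with A8B1-OVA.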

How the results depend on the processing

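Calls of Xcl1 and Ccl4 in OT-I cells with A8B1-OVA, and of Xcl1 in OT-II cells over saline and molar-equivalent OVA, held in all 13 alternatives tried for each. The number of the 4 genes called moved as follows. For higher-dose OVA over saline in OT-I cells (0) it was 1 with DESeq2, in a fit of the 6 libraries and in 1 fit of all 23. For A8B1-OVA over saline in OT-II cells (1) it was 3 with DESeq2, 2 in 1 fit of all 23 and 1 to 2 without single libraries. For A8B1-OVA over higher-dose OVA there (1) it was 0 to 1 without single libraries. For the difference of responses over saline (1) it was 2 with DESeq2, 0 without the 5 libraries with raised markers and 0 to 2 without single libraries. DESeq2 gave 2 and 1 for that difference over molar-equivalent and higher-dose OVA (0 and 0 with edgeR). Smaller moves are outside this list, among them those of OT-I cells with A8B1-OVA (3 called in each comparison). Over saline the call of Ccl3 was lost in 6 of 13 alternatives. Over molar-equivalent OVA it was lost in 4 of 13, and Ccl5 was gained in 1. Over higher-dose OVA the call of Ccl5 was lost in 5 of 13, and DESeq2 called 4 genes.

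The log2 values that changed sign were not called under any setting tried. Without single OT-I libraries they ran, for higher-dose OVA over saline, from -0.0929 to 0.30 (Xcl1) and -0.00825 to 0.57 (Ccl4), for higher-dose over molar-equivalent OVA from -0.0459 to 0.42 (Xcl1), and for molar-equivalent OVA over saline from -0.37 to 0.0936 (Xcl1), -0.69 to 0.39 (Ccl3), -0.59 to 0.15 (Ccl4; 0.18 without the 5 libraries) and -0.0219 to 0.93 (Ccl5). Without single OT-II libraries they ran, for A8B1-OVA, from -0.23 to 0.86 over saline and -0.38 to 1.88 over higher-dose OVA (Ccl4) and from -0.56 to 0.0328 over molar-equivalent OVA (Ccl5). For higher-dose OVA over saline they ran from -0.76 to 0.34 (Ccl3; 0.10 without the 5 libraries) and -1.65 to 0.60 (Ccl4; 0.52 without the 5). For higher-dose over molar-equivalent OVA they ran from -0.70 to 0.54 (Xcl1), -0.92 to 1.33 (Ccl4) and -0.0156 to 0.32 (Ccl5). The difference of responses ran from -0.0766 to 0.56 for Ccl5 (A8B1-OVA over saline) and from -0.44 to 1.84 for Ccl4 (higher-dose OVA over saline; -0.037 without the 5). The cause was not tested. Groups cut to 1 library took their spread from the others.

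A replicate block changed 1 sign, that of Ccl4 in OT-II cells for higher-dose OVA over saline (0.0869), and changed no count of called genes by over 1.5 times. Whether same-numbered libraries are paired is not stated. The deviations of OT-I and OT-II libraries of 1 treatment and number had r of -0.03 to 0.28 (median 0.128, 11 pairs, 6 over 0.1). With unlike numbers r was -0.24 to 0.13 (median -0.0179, 22 pairs, 1 over 0.1). The block has 1 effect per number over all treatments, so it cannot model such pairs. Contrasts across the cell types took all libraries as independent. Within OT-I cells r was -0.31 to 0.13 for the same number (18 pairs). At 3 to 76 counts per library, depth limits Ccl3 in OT-II cells.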
